A study of Mus musculus with 46 samples.

Results

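The 10 genes described here encode the histone variant H3.3 and the chaperones that carry it to chromatin. They are H3f3a and H3f3b, which encode H3.3, Hira, Ubn1, Ubn2 and Cabin1, whose products form the HIRA complex, Daxx and Atrx, and the histone-binding proteins Asf1a and Asf1b. They were taken by name from the 22238 protein-coding genes of the GENCODE vM1 annotation on the mouse build mm9, by a rule that uses no measured value. Each gene was given every deposited peak that overlapped the interval from 1 kb before its start to 1 kb after its end, called its window. Other protein-coding genes reach into some windows: Mrpl40 at Hira, Glyr1 and Ppl at Ubn1, Gm10644 at Asf1b, and the neighbours of Daxx and Asf1a named below. Peaks there may belong to a neighbour.

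H3.3 differs from the replication-coupled H3 histones at a few residues and is placed into chromatin throughout the cell cycle. The HIRA complex places H3.3 at promoters and over transcribed genes, the DAXX-ATRX complex places it at telomeres and other repeat-rich heterochromatin, and the ASF1 proteins hand H3-H4 dimers to HIRA and to the replication-coupled chaperone CAF-1. H3K4me3 is a mark of start sites of active or poised genes, and H3K36me3 is left over gene bodies by transcription.

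The study measured H3.3, H3K4me3 and H3K36me3 by ChIP-Seq while mouse embryonic fibroblasts (MEFs) changed fate. The fibroblasts came from embryos that carry an IRES-EGFP cassette after the stop codon of Oct4, and they were infected with pMXs retroviruses for Oct4, Sox2, Klf4 and c-Myc (OSKM) to make induced pluripotent stem cells (iPSCs). H3.3 was profiled before infection (D0), on day 3 in unsorted cells (D3), on days 6 and 9 in cells sorted as Thy-1- (D6T-, D9T-) or Thy-1+ (D6T+, D9T+), and on days 12 and 16 in cells sorted as SSEA-1+ (D12S+, D16S+) or SSEA-1- (D12S-, D16S-). Fully reprogrammed iPSCs and ESD3, an embryonic stem cell line of the mouse, completed these 12 libraries, and H3K4me3 and H3K36me3 were profiled in 7 of the stages (D0, D3, D6T-, D9T-, D12S+, D16S+ and iPSCs). A second H3.3 series of 4 libraries followed transdifferentiation to hematopoietic cells after pMX retroviral Scl, Lmo2, Bmi1 and Runx1 (SLBR), with fibroblasts at day 0 (MEF), cells at day 4 (D4), and cKit+ and cKit- cells of the finished conversion. The sources used here do not say how many embryos or iPSC clones stand behind a library.

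Every stage was 1 library for each mark, so no difference below has a replicate check and no test was run. Each value is the summed score of the peaks of a gene in tags per 10 M tags of the library, and each 95% interval is an exact Poisson or binomial interval for counting error only, since PCR tags are not independent molecules. Libraries held between 13.19 and 91.75 M tags, and the share of tags inside peaks ran from 4.88% to 22.0% over the 12 H3.3 libraries of reprogramming, from 1.65% to 37.2% over the 4 of transdifferentiation, from 3.71% to 34.8% for H3K4me3 and from 1.07% to 42.4% for H3K36me3. The median gene therefore moved between libraries, and changes are given relative to it where this matters. The H3K36me3 library of D6T- had a fragment length of 444 bases, against 120 to 158 in the other H3K36me3 libraries. The part of this in its values was not tested. Of 8 fibroblast marker genes, including Col1a1 and Prrx1, 8 had an H3.3 peak at D0, 2 in iPSCs and 0 in ESD3. Of 8 pluripotency genes, including Nanog and Pou5f1, 3 had one at D0, 8 in iPSCs and 8 in ESD3, while 8 of 8 fibroblast genes had one in the other day 0 library, MEF.

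The genes of the H3.3 pathway themselves carried H3.3 in nearly all libraries. Over the 12 reprogramming libraries, 116 of 120 pairs of member and library had a peak, against 56.2% of pairs over all protein-coding genes. H3f3a, H3f3b, Ubn2, Cabin1, Daxx and Asf1b had a peak in all 12, which holds for 28% of genes. The 4 pairs without a peak were Hira and Ubn1 at D16S+, Atrx in D6T+ and Asf1a in ESD3. Over all 16 H3.3 libraries, H3f3a, H3f3b, Ubn2, Daxx and Asf1b had a peak in each, which holds for 14.5% of genes. Longer genes have more room for peaks, so these counts are not free of gene length.

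**Figure D1:**
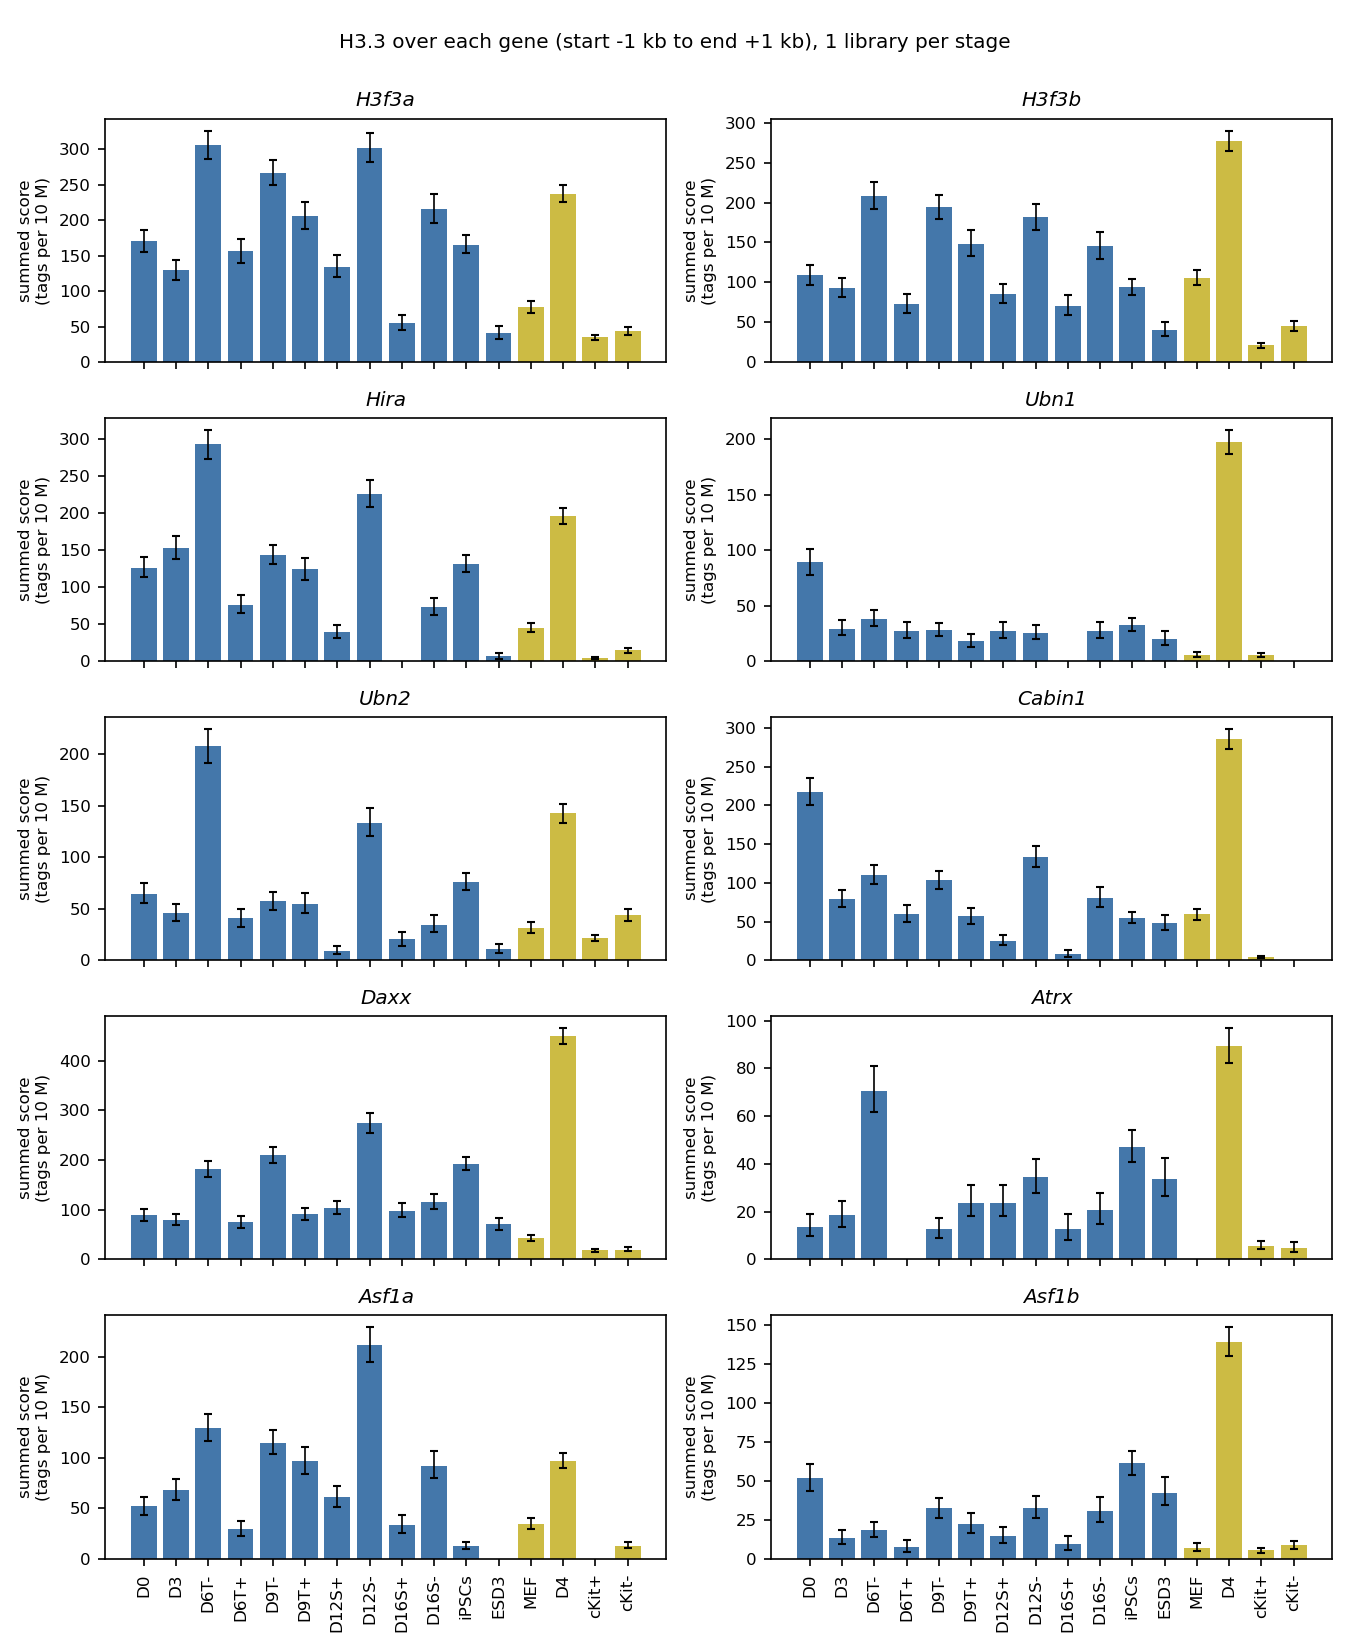
Summed H3.3 score (tags per 10 M tags, vertical axis) of each of the 10 genes in each of the 16 libraries (horizontal axis), with exact 95% Poisson intervals for counting error and 1 library per stage. H3f3a, H3f3b, Ubn2, Daxx and Asf1b had a peak in each of the 16 libraries, while Hira and Ubn1 had no peak at D16S+.

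Per length of window, H3f3a, Daxx and H3f3b carried the most H3.3 and Atrx the least. The median over the 12 reprogramming libraries was 10.8 tags per 10 M per kb at H3f3a, 10.6 at Daxx and 8.62 at H3f3b. It was 3.98 at Asf1a, 1.26 at Hira, 0.992 at Asf1b, 0.712 at Ubn1, 0.532 at Ubn2, 0.469 at Cabin1 and 0.165 at Atrx. The ranges over libraries overlapped between neighbours in this order, for example 2.68 to 18.7 at H3f3a, 8.06 to 17.1 at Daxx and 2.99 to 17.2 at H3f3b. Atrx, at the bottom, ran from no peak to 0.528, and so did not reach the lowest values of H3f3a, H3f3b or Daxx. This order is not free of gene length, which was 6.05 kb at H3f3b, 6.18 at Daxx and 13.1 at H3f3a, and 132 at Atrx. Asf1a and Asf1b, at 12.3 and 14.7 kb, were close to H3f3a in length and lay below it. Genes of like length outside the members were not compared.

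H3f3a and H3f3b encode the same H3.3 protein from coding sequences that have drifted apart. Both reading frames have 411 bases in mm9, of which 95 differ (76.9% identity), and 81 of these differences fall on the third base of a codon. The first 120 bases of each, which encode the start of the N-terminal tail that holds K4 and K36, are printed 5′ to 3′ with the 24 differing bases in capitals, to show how reads of the 2 genes can be told apart.
H3f3a: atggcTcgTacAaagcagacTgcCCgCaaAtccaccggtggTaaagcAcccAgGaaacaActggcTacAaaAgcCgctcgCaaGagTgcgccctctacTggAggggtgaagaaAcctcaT
H3f3b: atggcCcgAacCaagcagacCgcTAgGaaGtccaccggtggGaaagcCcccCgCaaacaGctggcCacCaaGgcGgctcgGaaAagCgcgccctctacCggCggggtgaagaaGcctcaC

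The 2 genes differed much more in their copies elsewhere in the genome. The mm9 assembly held 39 intronless copies of the H3f3a coding sequence on 15 chromosomes, at 90% to 99.3% identity over at least 90% of its length, and 7 of them were at 98% identity or more. H3f3b had 2 such copies, at 92.3% and 96.8%. The authors had removed reads that mapped to more than 1 locus, so tags from stretches of H3f3a shared with a copy could be missing, and the size of this loss was not tested.

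The start regions of the 2 genes also had little in common. H3f3a, on the minus strand of chromosome 1 (chr1:182730963-182744074 in mm9), started in a CpG-dense stretch, while the annotated start of H3f3b, on the minus strand of chromosome 11 (chr11:115883226-115889276), lay in a CpG-poor one. The 150 bases upstream of the start of transcript H3f3a-001, 0.31 kb inside the annotated gene start (chr1:182743764-182743913, minus strand) and of H3f3b-001 (chr11:115889277-115889426, minus strand) are printed 5′ to 3′ with each CpG in capitals.
H3f3a-001: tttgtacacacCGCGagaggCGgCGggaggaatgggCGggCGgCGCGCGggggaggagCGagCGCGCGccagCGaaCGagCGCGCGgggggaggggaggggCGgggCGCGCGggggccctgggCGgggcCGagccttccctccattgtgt
H3f3b-001: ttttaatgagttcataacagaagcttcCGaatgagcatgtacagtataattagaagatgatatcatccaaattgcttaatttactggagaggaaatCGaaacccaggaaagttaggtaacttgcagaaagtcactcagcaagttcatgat
The H3f3a window held 24 CpG and 78.7% G or C, and had more CpG than 96.8% of the 22238 gene starts. It held 3 matches to the GC box (GGGCGG, either strand), which 35.5% of gene starts hold at least once. The H3f3b-001 window held 2 CpG, more than 23.9% of gene starts, and no match to the GC box. Nor did either window match the CCAAT box (the letters CCAAT on either strand, at 26.1% of gene starts) or the TATA box (TATAAA on either strand, at 7.87%). A shorter annotated transcript of H3f3b starts 3.46 kb further into the gene, and the 150 bases upstream of it (chr11:115885819-115885968) held 16 CpG, more than 84.4% of gene starts, with 1 CCAAT box match and 1 TATA box match. No 2 matches shared a base in any window described here.

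H3K4me3 lay at the CpG-rich windows of both genes and not at the annotated start of H3f3b. At H3f3a a peak lay over the start in 6 of 7 libraries, with summed scores over the gene of 408 at D0, 353 at D3, 528 at D6T-, 449 at D9T-, 156 at D12S+ and 202 in iPSCs, and no peak at D16S+. At H3f3b no library had an H3K4me3 peak within 1 kb of the annotated gene start, but all 7 had 1 peak inside the gene, from 3.55 kb or less to 5.02 kb or more past that start. Its scores were 308 at D0, 216 at D3, 376 at D6T-, 259 at D9T-, 71.8 at D12S+, 44.3 at D16S+ and 113 in iPSCs. In 6 of the 7 libraries this peak covered the start of the shorter transcript, and in D16S+ it began just past it.

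H3.3 lay over the bodies and the 3′ ends of both genes, and a peak within 1 kb of the gene start was found in 14 of 16 libraries at H3f3a and in 9 of 16 at H3f3b. Along the stages towards pluripotency the H3.3 score of H3f3a was 170.4 at D0, 129.8 at D3, 305 at D6T-, 267 at D9T-, 134 at D12S+, 55.2 at D16S+ and 166 in iPSCs. That of H3f3b was 109 at D0, 92.9 at D3, 208 at D6T-, 194 at D9T-, 85.3 at D12S+, 70.4 at D16S+ and 93.7 in iPSCs. Both scores were highest in D6T- and lowest in D16S+ among these stages. Rank, which sets a gene against the other genes of its library, gave another order. The percentile of H3f3b was lowest at D0 (78.4) and highest at D16S+ (94.2), and that of H3f3a was lowest at D0 (86.0) and highest at D12S+ (95.6). In D0 the main H3.3 peak of H3f3a ran from 4.25 to 14.04 kb past the gene start and held 146.5 of its 170.4 tags per 10 M.

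Within each gene the density of H3.3 was compared between 1 kb either side of the start, the body, and 1 kb either side of the end. The score of a peak was divided by overlapped length, as if tags lay evenly along it. A part is thus dense where peaks cover more of it or score higher, and no gradient within a peak was measured. In D12S-, for example, body and end of H3f3a both came to 19.59 tags per 10 M per kb. The end was the densest part in 13 of 16 libraries at H3f3a and in 15 of 16 at H3f3b. The median densities at H3f3b were 1.25 tags per 10 M per kb at the start, 8.44 in the body and 19.0 at the end. The start used for H3f3b was the annotated one, which had no H3K4me3 peak. The start of its shorter transcript, 3.46 kb further in, fell in the body. By this split H3K4me3 was itself densest at the end of H3f3b in 4 of 7 libraries, so start and end are not cleanly separated there. At the chaperone genes the start was the densest part more often: in 13 of 16 libraries with a peak at Ubn2, 12 of 15 at Cabin1, 11 of 15 at Hira, 9 of 14 at Ubn1 and at Asf1a, and 9 of 16 at Asf1b. Daxx was densest at its end in 9 of 16 libraries, and Atrx in its body in 12 of 14.

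**Figure D2:**
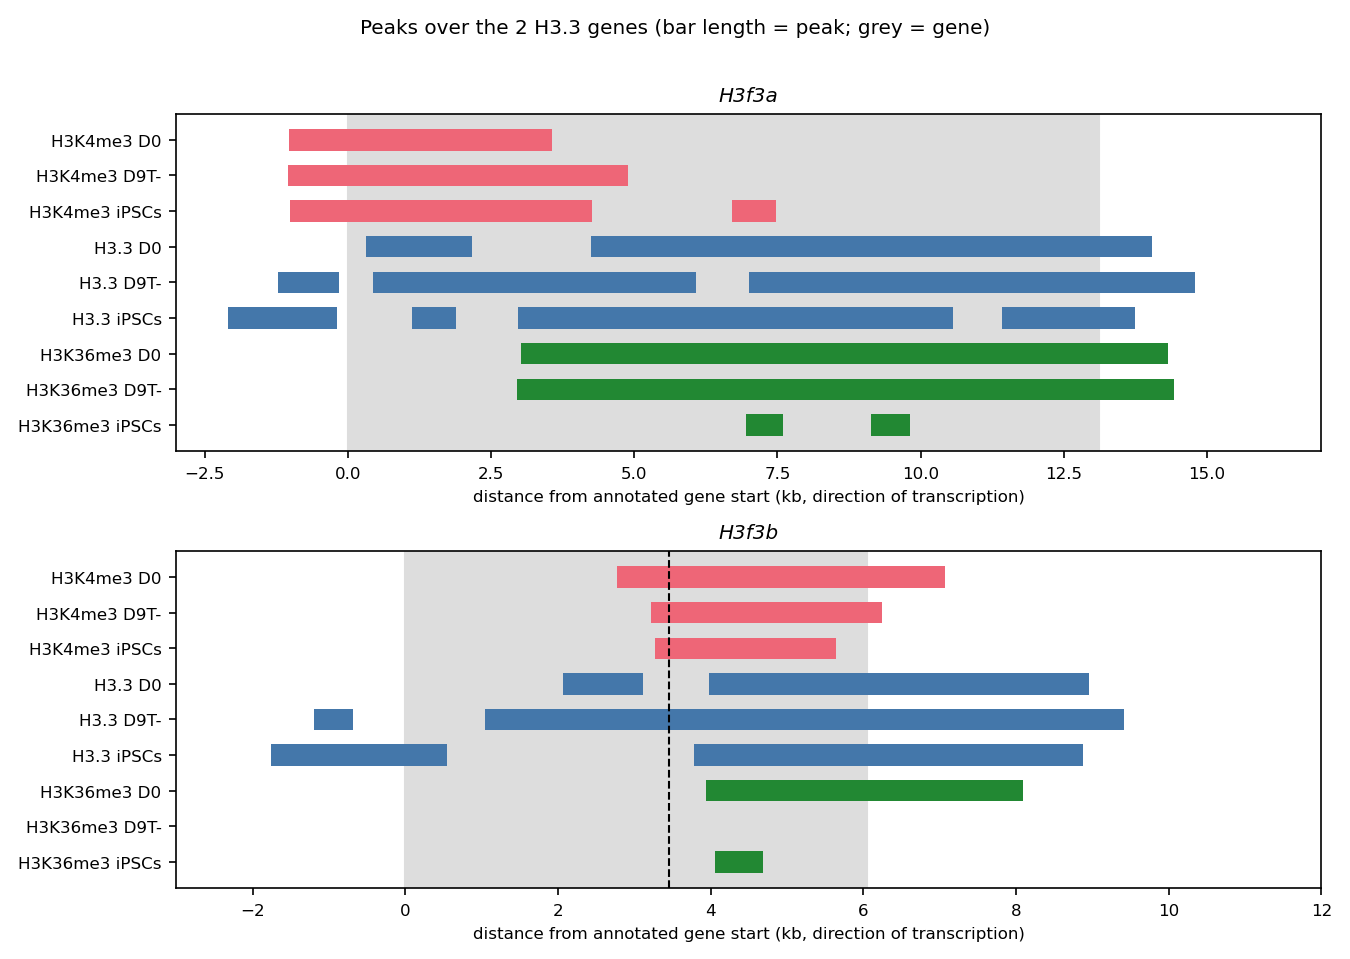
Peaks of H3.3, H3K4me3 and H3K36me3 in D0, D9T- and iPSCs (one line per library, vertical axis) along H3f3a and H3f3b, by distance from the annotated gene start in kb in the direction of transcription (horizontal axis), with the gene shaded. At H3f3b the H3K4me3 peaks of D0, D9T- and iPSCs cover the point 3.46 kb past the annotated start, and H3.3 peaks of both genes reach past the gene end in D0.

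By rank the H3.3 genes stood high in every library. H3f3a lay between the percentiles 82.4 and 95.6 of all protein-coding genes for its summed H3.3 score over the 12 reprogramming libraries, and H3f3b between 78.4 and 94.2. The H3K36me3 scores of H3f3b were 112 at D0, 33.8 at D3, 14.6 at D6T- and 13.2 in iPSCs, with no peak at D9T-, D12S+ or D16S+. Its change from D0 to iPSCs was -3.09 on the log2 scale, beside -3.21 for the median gene. Its percentile for this mark was 69.5 at D0, 69.0 at D3, 68.5 at D6T- and 76.2 in iPSCs. H3f3a kept an H3K36me3 peak in all 7 libraries, with a highest score of 413 at D9T- and a lowest of 18.9 at D16S+. In the 3 libraries with no H3K36me3 peak at H3f3b, its H3.3 percentile was 90.8, 90.7 and 94.2.

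In the HIRA complex, Hira encodes the WD-repeat subunit that binds H3.3-H4 together with UBN1 and UBN2, and CABIN1 joins them. Hira (chr16:18877130-18970402, plus strand) had H3.3 scores of 126 at D0, 153 at D3, 293 at D6T-, 144 at D9T-, 39.5 at D12S+, no peak at D16S+ and 132 in iPSCs. By score the gene was lower in the SSEA-1+ stages than before and after them. By rank D12S+ (percentile 79.8) lay beside D0 (80.9), and both were below D3 (90.8) and iPSCs (89.9). ESD3 also had little, with 1 peak and a score of 6.48, so that iPSCs stood 4.35 higher on the log2 scale (95% interval 3.59 to 5.23). The median of all genes was itself 0.93 higher in iPSCs than in ESD3, and relative to it the difference at Hira was 3.41.

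Hira stood out more by H3K36me3. Its scores were 915 at D0, 462 at D3, 373 at D6T-, 2195 at D9T-, 74.3 at D12S+, 82.5 at D16S+ and 71.7 in iPSCs. They placed it between the percentiles 95.2 and 99.6 in all 7 libraries, in which long genes rank high because the score is summed over 93.3 kb. The change from D9T- to iPSCs was -4.94 on the log2 scale (95% interval -5.16 to -4.72), against a median change of -3.85 over all genes. In D16S+ Hira had neither an H3.3 nor an H3K4me3 peak while it kept H3K36me3 peaks over 4.48 kb.

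**Figure D3:**
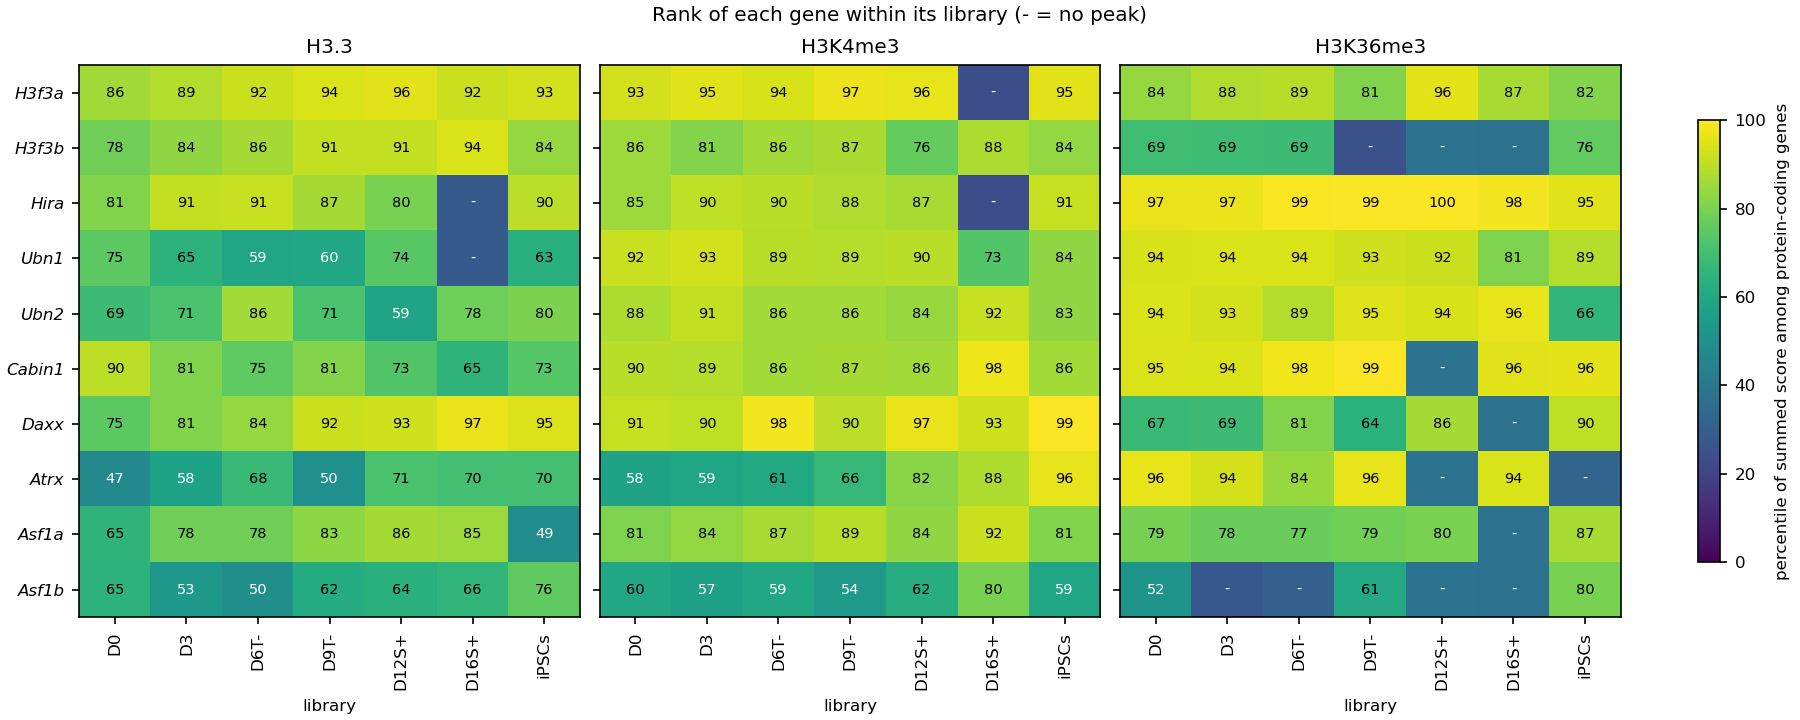
Percentile of the summed score of each of the 10 genes among all protein-coding genes of the same library (colour), for 3 marks and the 7 stages from D0 to iPSCs (horizontal axis), with a dash where a gene had no peak. Hira stays above percentile 95.2 for H3K36me3 at all 7 stages, and Atrx moves from 57.8 to 96.3 for H3K4me3.

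Ubn1 and Cabin1 had their highest H3.3 scores of reprogramming in D0. Ubn1 (chr16:5050161-5086378, plus strand) scored 89.1 at D0, and then 29.4 at D3, 38.4 at D6T-, 28.1 at D9T-, 27.3 at D12S+, with no peak at D16S+, and 32.7 in iPSCs. Cabin1 (chr10:75108855-75227102, minus strand) scored 218 at D0, 78.8 at D3, 109.8 at D6T-, 104 at D9T-, 25.5 at D12S+, 8.54 at D16S+ and 55.1 in iPSCs. By score both were thus lower at every later stage of this route than in D0. By rank Ubn1 at D12S+ (percentile 73.9) lay beside D0 (74.6), while Cabin1 went from 89.9 at D0 to 81.4 or less. The other day 0 fibroblast library, MEF, had 5.25 at Ubn1 and 59.4 at Cabin1, while the median gene was itself at -1.39 on the log2 scale in MEF against D0.

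Ubn2 (chr6:38383925-38474825, plus strand), whose product is a paralogue of UBN1, followed another course. Its H3.3 scores were 64.8 at D0, 45.5 at D3, 208 at D6T-, 57.2 at D9T-, 9.33 at D12S+, 20.5 at D16S+ and 76.2 in iPSCs. The high value in D6T- came from 15 peaks over 15.8 kb, against 4 peaks over 4.54 kb in D0. The value in D12S+ was a single peak that lay to 86.1% outside the window, upstream of the gene.

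Cabin1 carried H3K4me3 both at its start and inside the gene. H3K4me3 lay over the gene start in all 7 libraries, at 186 at D0, 164 at D3, 242 at D6T-, 166 at D9T-, 67.1 at D12S+, 50.9 at D16S+ and 76.9 in iPSCs. Another H3K4me3 peak lay inside the gene, also in all 7 libraries, over the annotated start of transcript Cabin1-203, 96.75 kb past the gene start. It scored 149.6 at D0, 106 at D3, 137 at D6T-, 86.8 at D9T-, 28.6 at D12S+, 13.3 at D16S+ and 45.2 in iPSCs. The internal peak was the lower of the 2 in every library. The 150 bases upstream of the gene start (chr10:75227103-75227252, minus strand) are printed with each CpG in capitals, since H3K4me3 lay over this start at each of the 7 stages.
Cabin1 gene start: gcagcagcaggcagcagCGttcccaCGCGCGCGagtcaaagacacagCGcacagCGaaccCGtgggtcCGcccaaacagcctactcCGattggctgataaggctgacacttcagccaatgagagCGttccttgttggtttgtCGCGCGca
This stretch held 14 CpG, more than 78.5% of gene starts, with 2 CCAAT box matches and 1 GC box match.

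Daxx and Atrx encode the chaperone and the chromatin remodeller of the other H3.3 pathway. Daxx (chr17:34046359-34052534, plus strand) is a short gene with the neighbours Tapbp and Zbtb22 inside its window. Its H3.3 scores were 89.2 at D0, 79.8 at D3, 182 at D6T-, 210.2 at D9T-, 104 at D12S+, 98.2 at D16S+ and 192 in iPSCs. The other 9 members were below their D0 value in D16S+, where Daxx was not and ranked above them all, at percentile 96.7. Inside the window alone Daxx scored 74.5 at D16S+ against 89.2 at D0, so by this count it too was below its D0 value. In iPSCs 46.9% of the bases covered by its peaks lay outside the window, towards the neighbours, and the part inside the window scored 106 against 89.2 at D0.

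The H3K4me3 of Daxx showed the same spread beyond the gene. Its peaks scored 374 at D0 over 6.76 kb, 783 at D6T- over 11.2 kb, and 401 in iPSCs over 15.0 kb, where 54.5% of the covered bases lay outside the window. The remaining libraries had 284 at D3, 289 at D9T-, 160.2 at D12S+ and 56.9 at D16S+. Daxx was the only member at least 2-fold higher in D6T- than in D0 for this mark, which held for 4.9% of genes. In D6T- 50.5% of its covered bases lay outside the window, and the part inside scored 402 against 315 at D0. Tags of Daxx and of its close neighbours cannot be told apart in peaks that span them.

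Atrx (chrX:102992954-103124736, minus strand) carried the least H3.3 of the 10 for its length, in a few short peaks whose places differed between libraries. Its H3.3 scores were 13.7 at D0, 18.6 at D3, 70.7 at D6T-, 12.8 at D9T-, 23.8 at D12S+, 12.8 at D16S+ and 47.0 in iPSCs. In D0 the only peaks were short ones, at 53.02 and 93.46 kb into the gene. Of the 4 peaks in iPSCs, the highest, at 28.3, lay from 3.08 to 6.02 kb past the start, and another, from 52.67 to 53.33 kb, overlapped the first of the D0 peaks, as did one in ESD3. Within the first 10 kb, D12S+, D12S-, D16S+, ESD3 and D4 also had a peak and the other 10 libraries had none.

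**Figure D4:**
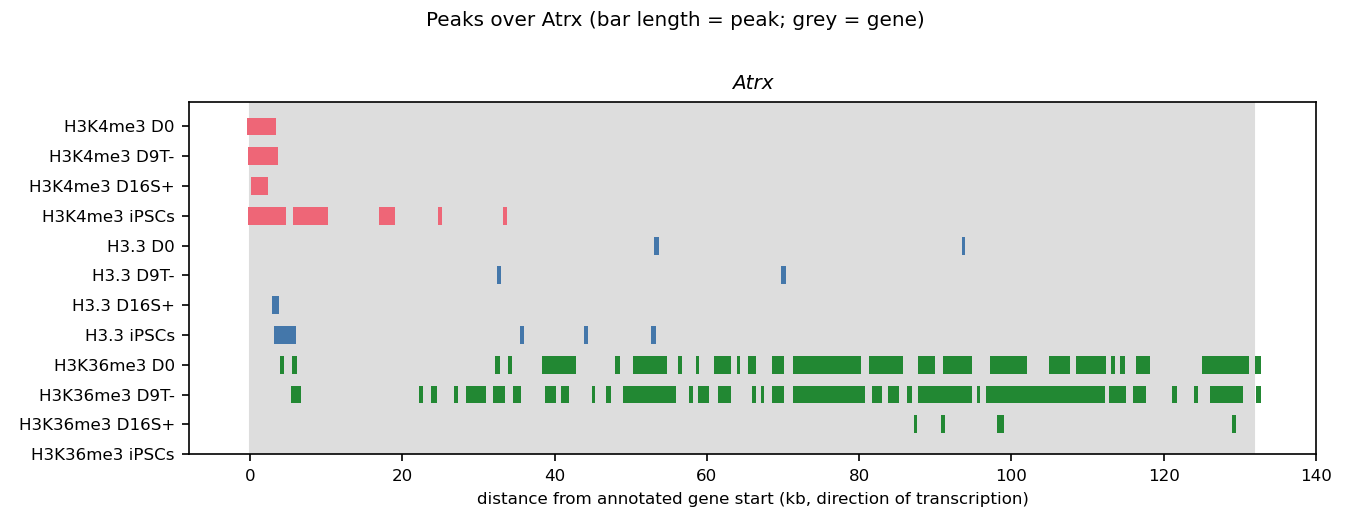
Peaks of H3.3, H3K4me3 and H3K36me3 (one line per library, vertical axis) along Atrx, by distance from the gene start in kb in the direction of transcription (horizontal axis). H3K4me3 is 1 peak of 3.79 kb at the start in D0 and 5 peaks over 12.7 kb in iPSCs, while H3K36me3 covers 59.3 kb in D0 and has no peak in iPSCs.

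H3K4me3 covered more of Atrx in iPSCs than in D0, while H3K36me3 had no peak there in iPSCs. Its H3K4me3 scores were 152 at D0, 123 at D3, 188 at D6T-, 146 at D9T-, 85.0 at D12S+, 44.3 at D16S+ and 220.1 in iPSCs, and its percentile went from 57.8 at D0 over 59.1, 60.7, 66.5, 82.2 and 87.6 to 96.3. The single D0 peak covered 3.79 kb from -0.41 kb to 3.38 kb, whereas the 5 peaks of iPSCs covered 12.7 kb and reached to 33.69 kb past the start. The start peak itself scored 128 in iPSCs at 8.95-fold over input, against 152 at 18.6-fold in D0. The iPSC peaks beyond it were only 4.22-fold to 6.47-fold over input, near the limit of 4 for this mark. Its H3K36me3 scores were 905 at D0, 295 at D3, 72.0 at D6T-, 1188 at D9T- and 43.2 at D16S+, with no peak at D12S+ or iPSCs. The 150 bases upstream of its start (chrX:103124737-103124886, minus strand) are printed with each CpG in capitals, since the H3K4me3 peak of 6 of the 7 libraries covers the start they lead to.
Atrx-001: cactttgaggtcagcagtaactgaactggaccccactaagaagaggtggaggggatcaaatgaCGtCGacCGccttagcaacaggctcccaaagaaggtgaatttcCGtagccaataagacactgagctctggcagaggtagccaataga
This window held 4 CpG, more than 39.2% of gene starts, and 2 CCAAT box matches.

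Asf1a and Asf1b encode the paralogous histone-binding proteins that pass H3-H4 on. Asf1a (chr10:53316767-53329019, plus strand) lies within Mcm9, a gene of the MCM family of helicases, so its peaks cannot be assigned to Asf1a alone. Its H3.3 scores were 51.9 at D0, 68.2 at D3, 129 at D6T-, 115 at D9T-, 61.4 at D12S+, 33.6 at D16S+ and 12.4 in iPSCs, with no peak in ESD3. The 2 pluripotent lines were thus the lowest of the 12 libraries at this gene.

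Asf1b (chr8:86479406-86494096, plus strand) had H3.3 scores of 51.5 at D0, 13.0 at D3, 18.2 at D6T-, 32.2 at D9T-, 14.7 at D12S+, 9.07 at D16S+ and 61.3 in iPSCs. D0 and iPSCs were the 2 high ends of this route and the stages between them were lower. In iPSCs 47.9% of the covered bases lay outside the window, since the largest peak lay past the gene end. H3K36me3 at Asf1b was found in 3 of 7 libraries, at 6.92 at D0, 72.3 at D9T- and 17.5 in iPSCs, the fewest of any member.

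The first comparison set iPSCs against the D0 fibroblasts they came from. Over the 15732 genes with an H3.3 peak in either, the median change was -0.52 on the log2 scale. Ubn1, Cabin1 and Asf1a were at least 2-fold lower in iPSCs, as were 38.6% of genes, and Daxx and Atrx at least 2-fold higher, as were 20.7%. The changes were -1.45 for Ubn1 (95% interval -1.76 to -1.13), -1.98 for Cabin1 (-2.21 to -1.76), -2.07 for Asf1a (-2.56 to -1.60), 1.11 for Daxx (0.90 to 1.32) and 1.78 for Atrx (1.27 to 2.33). The shares of members are close to the shares of all genes.

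Relative to the median gene, 4 members stayed past 2-fold. Cabin1 stood at -1.46 and Asf1a at -1.54, with 29.3% of genes that far down, and Daxx at 1.63 and Atrx at 2.30, with 28.7% that far up. Ubn1 came to -0.92. H3f3a (-0.04 before and 0.48 after centring), H3f3b (-0.22 and 0.30), Hira (0.06 and 0.58), Ubn2 (0.23 and 0.76) and Asf1b (0.25 and 0.77) stayed within 2-fold on both scales. Without the flanks of the gene Asf1b came to -1.23 and Ubn2 to -0.42 before centring, so Asf1b was then at least 2-fold lower. For scale, the MEF library, also day 0 fibroblasts, differed from D0 by -2.69 at Ubn1, -1.49 at Asf1b and 1.34 at H3f3b after centring, with 22.9% of all genes at least 2-fold lower and 19.2% higher. At Ubn1 the 2 fibroblast libraries thus lay further apart than D0 and iPSCs. At Cabin1 (-0.48), Asf1a (0.79) and Daxx (0.32) they lay closer together, and Atrx had no peak in MEF. These libraries are not replicates. MEF held 46.7 M tags with 7.64% in peaks, against 26.96 M and 19.1% in D0. The paper also describes sorting cells with hematopoietic surface markers out of the fibroblasts for transdifferentiation. The part of either in these differences was not tested.

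The early change was examined in D3 and D6T-, each set against D0, which these comparisons share. In D3 the median gene changed by -0.60. Ubn1 (-1.60, 95% interval -1.99 to -1.22), Cabin1 (-1.46, -1.70 to -1.23) and Asf1b (-1.99, -2.56 to -1.42) were at least 2-fold lower, as were 35.5% of genes, and no member was 2-fold higher, while 6.84% of genes were. In D6T- the median gene changed by 0.23. Hira (1.21), Ubn2 (1.68), Daxx (1.03), Atrx (2.36) and Asf1a (1.32) were at least 2-fold higher, as were 26.5% of genes, and Ubn1 (-1.21) and Asf1b (-1.50) at least 2-fold lower, as were 21.3%. Inside its window Daxx scored 129.5 in D6T- against 89.2 at D0, and at Ubn1 the D0 score of 89.1 stood beside 5.25 in MEF.

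The second comparison set the 2 sorted fractions of 1 day against each other, the Thy-1- or SSEA-1+ cells on the way to iPSCs against the rest. On day 6 the median member was 1.41 higher on the log2 scale in D6T- than in D6T+, and the median gene 0.91 higher. Of the members 7 were at least 2-fold higher, as were 46.5% of genes, and 4 were so relative to the median gene, as were 20.6%: Hira (1.03), Ubn2 (1.44), Asf1a (1.23) and Atrx, which had no peak in D6T+. On day 9 the median member was 0.38 higher and the median gene 0.31 higher in D9T- than in D9T+. Daxx was the only member at least 2-fold higher (1.21, 95% interval 0.98 to 1.44), as were 22.9% of genes. After centring on the median gene Daxx came to 0.90, and inside its window it scored 101.5 in D9T- and 84.5 in D9T+. Atrx stood at -1.20 relative to the median gene, where 13.9% of genes were at least 2-fold lower.

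On days 12 and 16 most genes had a lower H3.3 score in the SSEA-1+ fraction. The median member changed by -1.29 from D12S- to D12S+ and the median gene by -1.74. Of the members 8 were at least 2-fold lower in D12S+, as were 74.4% of genes, while relative to the median gene Ubn1 (1.84) and Atrx (1.21) were higher, as were 19.3% of genes, and Ubn2 (-2.10) lower, as were 21.3%. From D16S- to D16S+ the median member changed by -1.60 and the median gene by -1.45. Of the members 7 were at least 2-fold lower, as were 61.4%, and relative to the median gene Daxx was higher by 1.22, as were 25% of genes, and Cabin1 (-1.79) and Hira, which had no peak at D16S+, lower, as were 24.8%. The D16S+ library had fewest peaks of the 12 reprogramming libraries (34062), and its part in these values was not tested.

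**Figure D5:**
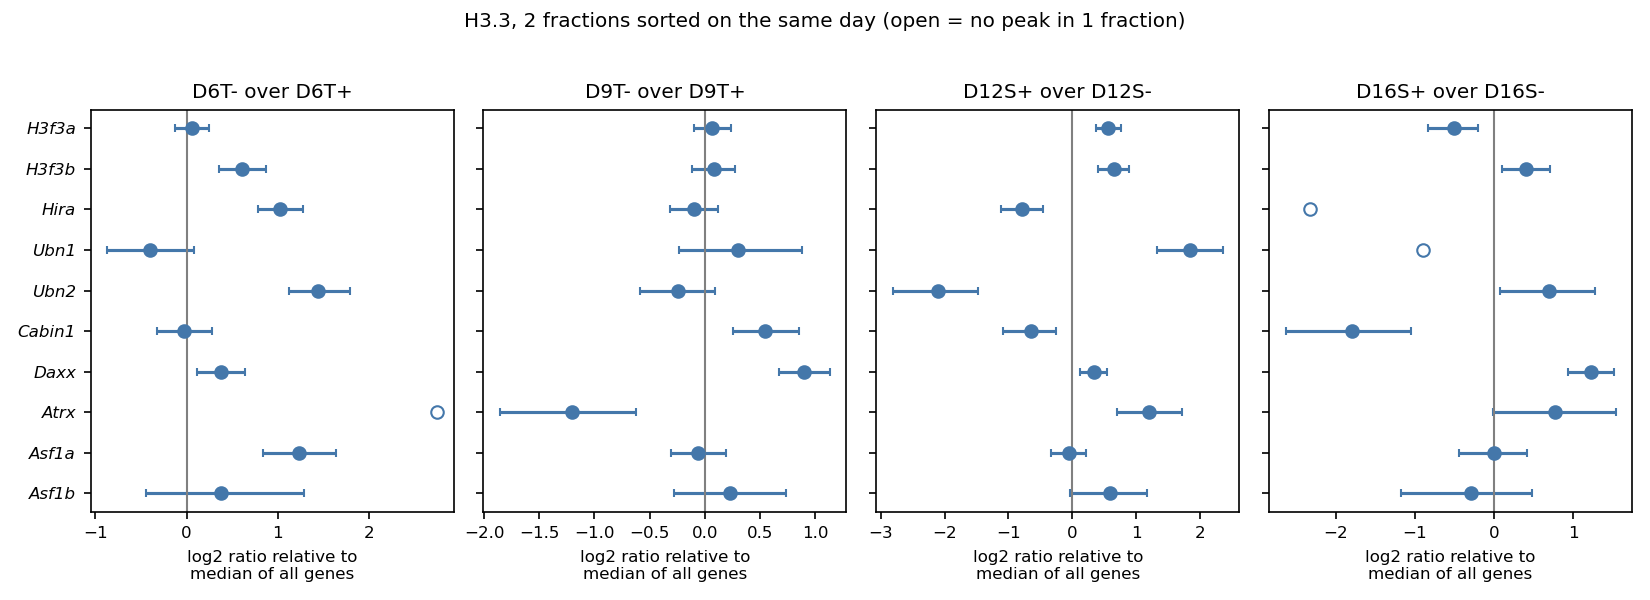
log2 ratio of the H3.3 score between both fractions of 1 sorting day, relative to the median of all genes (horizontal axis), for the 10 genes (vertical axis) and 4 days, with exact 95% binomial intervals for counting error and open symbols where 1 fraction had no peak. Ubn2 lies at 1.44 on day 6 and at -2.10 on day 12, and Atrx at -1.20 on day 9 and 1.21 on day 12.

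The H3.3 levels of both pluripotent lines were set side by side because ESD3 cells never were fibroblasts. Against ESD3, 6 members were at least 2-fold higher in iPSCs, as were 48.1% of genes. Relative to the median gene 3 stayed so, H3f3a (1.10), Hira (3.41) and Ubn2 (1.91), as did 21.7% of genes. The values at H3f3b (40.7 in ESD3 and 93.7 in iPSCs), Daxx (70.7 and 192), Cabin1 (48.4 and 55.1), Atrx (33.7 and 47.0) and Asf1b (42.4 and 61.3) differed by less than 2-fold from the difference of the median gene.

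Start sites of the members were marked by H3K4me3 almost throughout. A peak within 1 kb of the gene start was found in 61 of 70 pairs of member and library, and a peak anywhere in the window in 68 of 70, while 43.6% to 64.1% of all genes had a start peak in a given library. The 9 pairs without a start peak were the 7 of H3f3b and those of H3f3a and Hira in D16S+. With any annotated transcript start allowed, 68 of 70 pairs had one. Of genes at or above percentile 80 at D0, 9.91% lacked an H3K4me3 peak at D16S+, as H3f3a and Hira did. All 7 libraries had a peak at 8 members, which holds for 49.3% of genes.

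From D0 to iPSCs the H3K4me3 score of the median gene changed by -1.37, and 7 members were at least 2-fold lower, as were 70.1% of genes. Relative to the median gene, Daxx (1.47) and Atrx (1.91) were at least 2-fold higher, as were 12.6%, and no member was 2-fold lower, while 11.5% of genes were. Inside its window alone Daxx scored 179 in iPSCs and 315 at D0. At Atrx the change was 0.53 before centring (95% interval 0.36 to 0.71) and at Daxx 0.10 (-0.01 to 0.22).

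H3K36me3 had a peak in 58 of 70 pairs of member and library, against 38.2% of pairs over all genes. H3f3a, Hira, Ubn1 and Ubn2 had one in all 7 libraries, as did 14.6% of genes. From D0 to iPSCs the median gene changed by -3.21 and 9 members were at least 2-fold lower, as were 84.4% of genes, while Asf1b was higher (1.34, 95% interval 0.48 to 2.23), as were 3.27%. The iPSC library had 1 peak of 0.5 kb at Ubn2 (6.18, against 724 over 40.3 kb in D0), the most negative change among members with a peak in both (-6.87, 95% interval -7.71 to -6.15). From D0 to D9T- the median gene changed by 0.57, and Hira (1.26), Cabin1 (1.56) and Asf1b (3.39) were at least 2-fold higher, as were 32% of genes, while H3f3b had no peak in D9T-, among 12.4% of genes at least 2-fold lower.

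During transdifferentiation the members went the way of most genes. From MEF to D4 the median gene changed by 2.67 on the log2 scale and 10 of 10 members were at least 2-fold higher, as were 91.3% of genes. From D4 to cKit+ the median gene changed by -4.32 and 10 of 10 members were at least 2-fold lower, as were 95.3%. Relative to the median gene, H3f3a (-1.06), H3f3b (-1.28) and Asf1a (-1.16) were lower in D4 than in MEF, as were 20.5%, and Ubn1 (2.56), Asf1b (1.65) and Atrx, which had no peak in MEF, higher, as were 23%.

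The H3.3 genes ranked high at the end of this conversion. In cKit+ cells H3f3a scored 34.7 and H3f3b 21.0, at percentiles 95.5 and 91.8, and in cKit- cells 44.0 and 45.0, at 94.9 and 95.1. Of the chaperone genes, Ubn2 scored 21.7 in cKit+ and 44.1 in cKit-, Daxx 18.4 and 19.9, and Hira 4.09 and 14.5. Ubn1 and Cabin1 had no peak in cKit- and Asf1a none in cKit+. Between the 2 fractions 4 members were at least 2-fold lower in cKit+, as were 27.4% of genes. H3.3 peaks were found at 4 of 7 hematopoietic marker genes in MEF, in cKit+ and in cKit-, with none at Kit in any of them, against 7 of 7 in D4. Of all genes, 53.4% had a peak in MEF, 72.1% in D4, 33.3% in cKit+ and 31.9% in cKit-. Of 8 fibroblast marker genes, 5 had a peak in cKit+ and 6 in cKit-.

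A wider list of 28 other histone H3 chaperones and partners, among them the CAF-1 subunits, FACT and the DAXX partner Pml, was read beside the members. From D0 to iPSCs 5 of the 28 were at least 2-fold higher in H3.3 and 7 at least 2-fold lower, beside 20.7% and 38.6% of all genes, and their median change was -0.36 against -0.52 over all genes. Higher were Mcm2, a helicase subunit that binds H3-H4 (12.8 at D0 and 101 in iPSCs), Chaf1b, a subunit of CAF-1 (16.7 and 106), and Rbbp7, a histone-binding protein (no peak at D0 and 25.8). Lower were Hirip3, a protein that binds HIRA (94.6 and 12.5), Zmynd11, a reader of H3.3 trimethylated at K36 (174.6 and 30.0), and Ipo4, an importin of histones (74.8 and 27.7). These 6 were the extremes of the list in each direction.

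Some genes on other chromosomes followed the members closely in rank over the 12 reprogramming libraries. For H3f3a they were Creld1, C630004L07Rik and Paics (Pearson r of the H3.3 percentile 0.95, 0.94 and 0.94), for H3f3b Trdn, Btf3 and Ufc1 (0.91, 0.90 and 0.90), and for Hira Srsf4, Fads1 and Appbp2 (0.98, 0.97 and 0.97). They were the highest of 9368, 9002 and 9582 genes, and the points share depth and the share of tags in peaks, which differ between libraries. The percentile of Hira was 28.3 at D16S+, where it had no peak, and 50.5 in ESD3, and at least 79.0 in the other libraries. Its r can therefore rest largely on D16S+ and ESD3, and their weight was not tested.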

How the data were processed

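The authors mapped reads to mm9 with STAR, removed reads with more than 2 mismatches or at more than 1 locus, and called peaks with HOMER findPeaks in histone style, for each of 30 libraries separately against an input, without pooling replicates. Versions of STAR and HOMER are not given in the sources used here. The peak score, a signal that the authors deposited as a normalized tag count, was scaled by them to 10 M tags and neither divided by length nor corrected for input. The fold over input is a ratio deposited with each peak (at least 2 for H3.3 and 4 for the other marks), and every peak had a deposited p-value of at most 0.0001 over input. The 16 input samples entered only through these values.

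Peaks overlapping a gene window by at least 1 base were summed per gene with Python 3.11.15, pandas 2.3.3 and scipy 1.17.1. Tags were recovered as score times library tags over 10 M, and gave exact Poisson intervals of a score and exact conditional binomial intervals of a ratio. Genes with no peak in 1 of 2 libraries were given the lowest score of that list for counts of 2-fold changes and for medians only, so such a gene has no fold here. Sequences came from the mm9 genome and GENCODE vM1, and copies were found with blastn 2.17.0. The window sums were tested on simulated data.

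All 10 members are named. Members that differed at least 2-fold between D0 and iPSCs or between fractions are described in full, and of the other chaperones the 3 most changed each way. For H3f3a, H3f3b and Hira the 3 genes on other chromosomes with the highest correlation of percentile, among those with a peak in at least 10 of 12 libraries, are named. The members and lists were chosen with earlier results of these data known.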

Additional observations from a re-analysis of the deposited data

Results flagged for a closer look

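Ubn2 and Atrx had H3.3 peaks in both fractions of the days compared and lay on opposite sides of the median gene on different days. Relative to the median gene, Ubn2 was 1.44 higher on the log2 scale in D6T- than in D6T+ and stood at -2.10 in D12S+ against D12S-. Atrx stood at -1.20 in D9T- against D9T+ and at 1.21 in D12S+ against D12S-. The Atrx values rest on few tags, 41 in D9T-, 54 in D9T+, 54 in D12S+ and 94 in D12S-. Before centring, its change was -0.89 on day 9 (95% interval -1.55 to -0.31) and -0.53 on day 12 (-1.03 to -0.02). Each fraction was 1 library, so the difference between days was not tested. Of 7074 genes with a peak in all 8 fractions, 881 (12.5%) showed such a switch past 2-fold in both directions. Ubn2 is among these genes, and Atrx is not, since it had no peak in D6T+. The D12S+ value of Ubn2 rests on a single peak that lay to 86.1% outside the window.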

How the results depend on the processing

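No paired analysis was possible because each group had 1 library and no result came from a test. The count of members at least 2-fold higher in H3.3 in iPSCs than in D0, which was 2, came to 1 with equal numbers of top-scoring peaks, with the gene without flanks, with at least 0.5 of a peak required in the window, with scores in proportion to the overlap and with input subtracted. Atrx lost the call with equal numbers of peaks (0.88), as did Ubn1 on the lower side (-0.85), and Daxx lost it without flanks and with 0.5 of a peak required (0.54 in both), in proportion to overlap (0.26) and with input subtracted (0.94). Asf1b was 2-fold lower without flanks (-1.23) and with 0.5 of a peak required (-1.44). The count of higher members came to 0 with a stricter fold over input (4 for H3.3 and 8 for the other marks). The count of lower members then rose from 3 to 8. Daxx came to -4.35 there, which is the lowest iPSC score (4.37) set against its D0 score (89.2). This value stands in for a missing peak and is not a measured fold. That setting keeps fewer peaks, and it left 7 of 36 pairs with a peak in transdifferentiation and 26 of 58 for H3K36me3. Start sites with H3K4me3 fell from 61 to 38 when at least 0.5 of the peak had to lie within the start window, which is narrower than most such peaks.

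The differences between fractions depended on the scaling. With scores divided by the tags in peaks of the library, the median member difference was 0.58 on day 6, 0.091 on day 9, 0.38 on day 12, reversed in sign, and -0.28 on day 16. Relative to the median gene, an alternative chosen after seeing the data, as was counting any transcript start, it was 0.49, 0.073, 0.45, also reversed, and -0.15. With the stricter fold it was -1.01 on day 9, reversed, and -1.72 on day 12, and with equal numbers of peaks -1.05 on day 16. The causes of these shifts were not tested. Of 65 summary values under alternatives, 44 moved by no more than the limits set, 18 moved further and 3 reversed. Of 200 scores and changes of single members, 81 stayed within them, 118 moved further and 1 reversed. Depth limits genes with no peak: a gene without a deposited peak may still hold tags.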
